A study of Mus musculus with 3 samples.

Results

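Mcm2, Mcm3, Mcm4, Mcm5, Mcm6, Mcm7, Mcm10, Ccne1, Ccne2 and Ccnd1 are 10 mouse genes of replication licensing and of the step from G1 into S phase. They were taken by name, as every probe whose transcript accession matches one of these symbols in the RefSeq gene table, which gave 12 of the 41174 probes that are not controls. Total RNA of male gonads from mouse embryos at embryonic day 14.5, of a line named MCH, had been hybridised to Agilent 1-colour arrays, with 2 arrays for each of 3 genotypes. The wild type was Cyp26b1+/+ and Stra8+/+, the Cyp26b1 knockout was Cyp26b1-/- and Stra8+/+, and the double knockout was Cyp26b1-/- and Stra8-/-. No group carries Cyp26b1+/+ with Stra8-/-, so loss of Stra8 can be read only in embryos that also lack Cyp26b1. The kind of deletion, and whether an array held RNA of 1 embryo or of several, are not given in the sources used here. Duplicates are described as biological, and each p-value covers the spread of these arrays alone.

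Licensing loads the MCM2-7 complex, a ring built of Mcm2, Mcm3, Mcm4, Mcm5, Mcm6 and Mcm7, onto origins of replication in G1, where it waits as an inactive helicase. Cyclin D1, encoded by Ccnd1, acts with Cdk4 and Cdk6 on the retinoblastoma proteins and thereby frees E2F factors, whose targets include MCM and cyclin E genes. The E cyclins, encoded by Ccne1 and Ccne2, act with Cdk2 at the entry into S phase, and Mcm10 joins the helicase when origins fire. In the fetal testis, germ cells normally stop dividing and rest in G1, while the enzyme Cyp26b1 degrades retinoic acid. Stra8 is induced by retinoic acid and is needed for premeiotic DNA replication and entry into meiotic prophase.

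Promoters of MCM genes are printed because the genes below differ in their response while several carry the same E2F motif. RefSeq windows of 300 bases, from 250 before to 50 after the start of transcription on GRCm38.p6, were at hand for 7 of the 10 genes, in 8 windows, since Mcm7 has 2. None was listed for Mcm4, Ccne2 and Ccnd1. The E2F motif searched was TTTCCCGC, TTTCGCGC, TTTGCCGC or TTTGGCGC on either strand, and the CCAAT box was CCAAT on either strand. Capitals mark both motifs in the windows of the 4 genes with an E2F match, all written 5′ to 3′ on the strand of the gene.
Mcm3, chr1:20820263-20820562, minus strand: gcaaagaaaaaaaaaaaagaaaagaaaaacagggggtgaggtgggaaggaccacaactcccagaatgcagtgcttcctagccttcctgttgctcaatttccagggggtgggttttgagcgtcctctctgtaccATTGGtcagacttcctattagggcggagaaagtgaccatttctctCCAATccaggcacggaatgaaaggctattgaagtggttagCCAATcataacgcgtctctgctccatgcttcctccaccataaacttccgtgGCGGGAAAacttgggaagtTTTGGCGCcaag
Mcm5, chr8:75109259-75109558, plus strand: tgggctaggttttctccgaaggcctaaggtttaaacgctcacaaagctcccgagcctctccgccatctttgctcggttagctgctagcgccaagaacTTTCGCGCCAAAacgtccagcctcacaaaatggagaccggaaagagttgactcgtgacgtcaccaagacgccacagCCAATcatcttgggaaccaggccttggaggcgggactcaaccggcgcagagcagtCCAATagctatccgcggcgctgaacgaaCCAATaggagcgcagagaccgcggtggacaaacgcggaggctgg
Mcm6, chr1:128359656-128359955, minus strand: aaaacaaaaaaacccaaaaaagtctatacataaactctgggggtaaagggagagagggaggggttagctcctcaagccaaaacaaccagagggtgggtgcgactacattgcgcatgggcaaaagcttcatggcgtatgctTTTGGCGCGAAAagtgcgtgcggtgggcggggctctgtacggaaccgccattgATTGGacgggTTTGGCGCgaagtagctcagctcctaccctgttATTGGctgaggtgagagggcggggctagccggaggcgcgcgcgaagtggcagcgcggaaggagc
Mcm7, chr5:138171834-138172133, minus strand: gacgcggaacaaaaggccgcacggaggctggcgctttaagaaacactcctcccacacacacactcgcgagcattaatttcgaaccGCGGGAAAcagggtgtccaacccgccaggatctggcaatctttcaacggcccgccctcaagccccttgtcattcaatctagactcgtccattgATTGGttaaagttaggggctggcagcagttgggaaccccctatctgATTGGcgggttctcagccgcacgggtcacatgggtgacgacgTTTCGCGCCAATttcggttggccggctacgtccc
Mcm3 held its 2 E2F matches at 19 and 38 bases after the start. Mcm5 held 2 at positions -153 and -149 from the start, which overlap on opposite strands, and Mcm6 held 3, of which those at -110 and -106 overlap. The printed Mcm7 window held 1 at -165 and 1 at 16 bases after the start, the last of which runs into a CCAAT box. The E2F motif was present in 2.26% of the 32851 windows of the table. A CCAAT box was present in windows of 6 of the 7 genes, all but Ccne1, against 37.4% of all windows. A retinoic acid response element, a direct repeat with a spacer of 5 bases, was present in 0 of the 7 genes and in 0.0974% of all windows. A match only describes these letters in this window.

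Values are on a log2 scale, as processed signal relative to its array's 75th percentile, so 1 unit is a doubling, and each gene is compared only with itself. A gene was called changed at a Benjamini-Hochberg adjusted p under 0.05 in limma, fitted over all 22267 features tested and all 6 arrays. Replicate arrays correlated across features with a Pearson r of 0.992 to 0.995, and 62.6% to 69.2% of spots per array were well above background. All 12 probes were well above background on all 6 arrays and 0 were saturated, so all 10 genes passed the filter on dim signals. Each genotype was on a slide of its own, and the slide of the Cyp26b1 knockout was scanned on another day than the other two. Slide and genotype therefore cannot be told apart, in any comparison here. With 2 arrays against 2, an exact permutation test cannot give a two-sided p below 0.333. The Cyp26b1 probe did not separate the arrays labelled Cyp26b1 knockout from wild type (log2 change 0.12, limma adjusted p = 0.562) or those labelled double knockout from wild type (0.08, adjusted p = 0.782). Stra8 signal exceeded that of wild type by 4.04 where the label was Cyp26b1 knockout (limma adjusted p = 0.000227) and by 2.98 where it was double knockout (adjusted p = 0.00379). Between the mutants, Stra8 signal was lower in the double knockout (log2 change -1.06, limma adjusted p = 0.0476). That call was kept in 10 of the 18 other settings tried. The sources do not place either probe against the deleted part of its gene, so neither checks the labels, and genotype names below stand for arrays so labelled.

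In arrays labelled Cyp26b1 knockout, 7 of the 10 genes were higher than in wild type and 0 were lower, also at an unadjusted p under 0.05. Of all features tested, 21.5% were called higher and 29.7% lower in this comparison. The median log2 change was 0.57 over the 10 genes and -0.09 over all features. Ccne2, Mcm3, Ccne1 and Ccnd1 rose by over 1 on the log2 scale, Mcm2 rose by 0.83, Mcm10 by 0.31 and Mcm5 by 0.30. Mcm4, Mcm6 and Mcm7 were not called.

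In arrays labelled double knockout, Mcm2 and Ccnd1 exceeded wild type, and 0 of the 10 genes were lower, also at an unadjusted p under 0.05. Features called higher made up 5.24% of all tested in this comparison, and those called lower 6.56%. The median log2 change was 0.26 over the 10 genes and -0.02 over all features. At an unadjusted p under 0.05, 5 of the 10 were higher. The share of all features at that unadjusted threshold was not computed. This and the other unadjusted counts here therefore cannot be read as an excess.

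Between the 2 mutant genotypes, Ccne2, Mcm3, Ccne1, Mcm2 and Mcm5 were lower in the double knockout than in the Cyp26b1 knockout, and Mcm4 was higher. Of all features, 25.0% were called higher and 18.0% lower. The median log2 change was -0.26 over the 10 genes and 0.09 over all features. The comparisons share arrays, so their values for one gene are not independent of each other. In this bulk RNA, fewer cells of a type and less RNA per cell cannot be told apart.

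**Figure D1:**
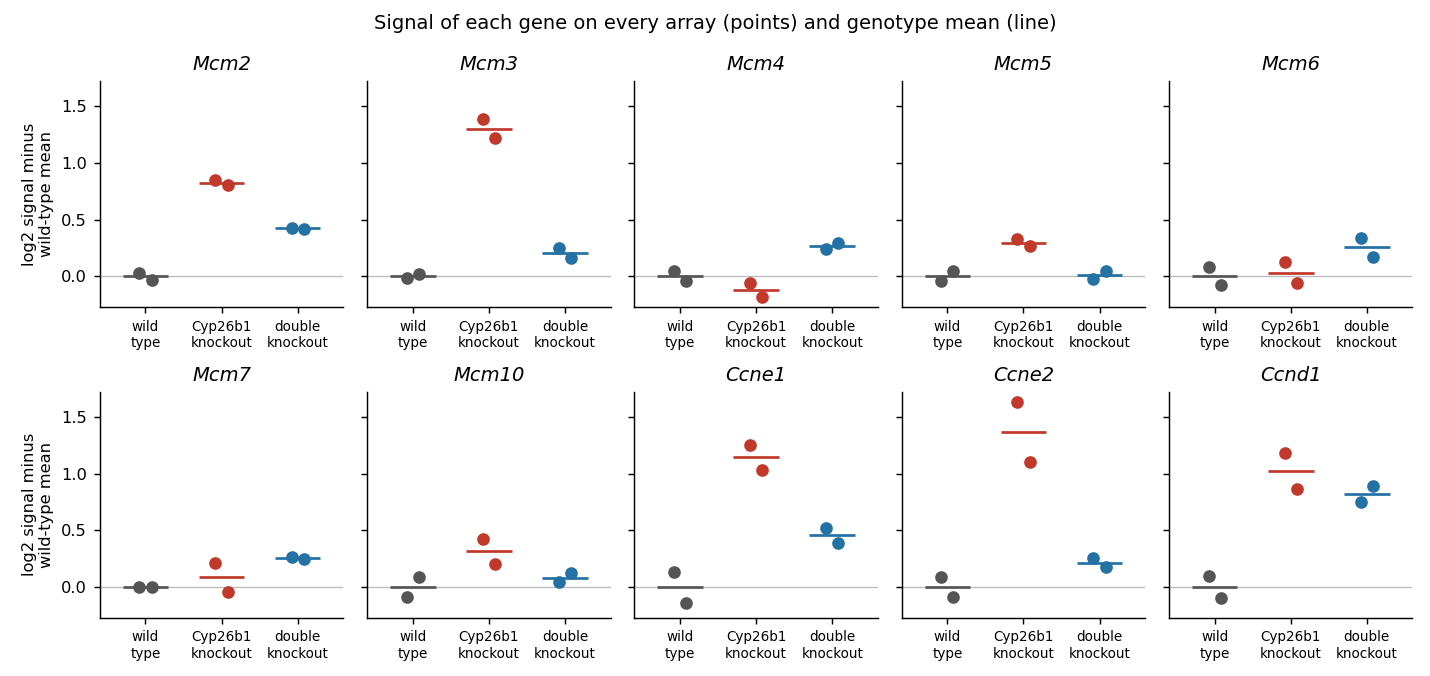
Log2 signal of each of the 10 genes on every array, as the difference from the wild-type mean of that gene. Points are the 2 arrays of a genotype and the line is their mean. Mcm3, Ccne1 and Ccne2 rise highest in the Cyp26b1 knockout, by 1.30, 1.14 and 1.36, while Ccnd1 stands 1.03 and 0.82 above wild type in the Cyp26b1 knockout and the double knockout.

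Among the subunits of the MCM2-7 ring, Mcm2, which is phosphorylated by the Cdc7 kinase when origins fire, measured 2.43 and 2.36 in wild type, 3.24 and 3.20 in the Cyp26b1 knockout and 2.82 and 2.82 in the double knockout. The 3 genotypes did not overlap, with the double knockout between the other two. Mcm2 was higher in the Cyp26b1 knockout by 0.83 (SE 0.077, 95% interval 0.65 to 1.01, limma adjusted p = 0.000258), a 1.77-fold rise. The double knockout exceeded wild type by 0.42 (limma adjusted p = 0.0158), and lower than in the Cyp26b1 knockout by 0.40 (log2 change -0.40, adjusted p = 0.00564). The call against wild type in the double knockout was lost without either array of wild type or of the double knockout (adjusted p from 0.0687 to 0.127). It was also lost with the scaling of the authors' value table, which gave a change of 0.22 and a limma adjusted p of 0.0728. Background correction by normexp on the median signals of all spots (0.51, adjusted p = 0.147) and limma without its intensity trend (0.42, adjusted p = 0.0522) lost it too. The call was kept in 11 of the 18 other settings, whose adjusted p ran from 0.00752 to 0.147. The difference between the mutants was called in 17 of the 18 other settings. It did not pass with background correction by normexp on the median signals of all spots (-0.43, adjusted p = 0.122). Mcm2 is thus ordered Cyp26b1 knockout, double knockout, wild type, and the call of the last step depends on all 4 arrays and on the processing.

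Mcm3, the subunit through which the ring is first drawn to the loading factors, measured 1.16 and 1.19 in wild type, 2.56 and 2.39 in the Cyp26b1 knockout and 1.42 and 1.34 in the double knockout. Both arrays of the Cyp26b1 knockout stood far above the other 4, and the double knockout stood just above wild type without overlap. The change was 1.30 in the Cyp26b1 knockout (SE 0.091, 95% interval 1.09 to 1.51, limma adjusted p = 0.000119), a 2.47-fold rise. Against the Cyp26b1 knockout, the double knockout changed by -1.10 (limma adjusted p = 0.000442), and against wild type by 0.20 (adjusted p = 0.182), which was not called. The rise in the Cyp26b1 knockout and the difference between the mutants were called in all 18 other settings tried.

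Mcm5, which forms with Mcm2 the gate through which DNA enters the ring, measured 3.97 and 4.06 in wild type, 4.34 and 4.28 in the Cyp26b1 knockout and 3.99 and 4.07 in the double knockout. The Cyp26b1 knockout arrays were above the other 4, and the remaining genotypes overlapped. Mcm5 rose by 0.30 in the Cyp26b1 knockout (SE 0.084, 95% interval 0.10 to 0.49, limma adjusted p = 0.021) and changed by -0.29 from there to the double knockout (adjusted p = 0.0289). The rise was lost without either wild type array or without the first Cyp26b1 knockout array, with adjusted p from 0.0587 to 0.133. The fall was lost without any 1 array other than the second of the Cyp26b1 knockout, with adjusted p from 0.054 to 0.152. Of the 18 other settings, 13 kept the call of the rise and 9 that of the fall. With median scaling the fall was -0.17 and did not pass (adjusted p = 0.162, within a range over settings of 0.00158 to 0.403). Against wild type, the double knockout differed by 0.01 (adjusted p = 0.945).

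Mcm4, Mcm6 and Mcm7 form the core of the helicase motor. Mcm4 measured 4.97 and 4.88 in wild type, 4.87 and 4.75 in the Cyp26b1 knockout and 5.17 and 5.22 in the double knockout. The double knockout was highest, and the Cyp26b1 knockout arrays lay just below those of wild type. The change of -0.12 in the Cyp26b1 knockout was not called (95% interval -0.33 to 0.09, limma adjusted p = 0.29), nor was 0.26 in the double knockout against wild type (adjusted p = 0.1). With median scaling the latter was 0.39 and passed (adjusted p = 0.0391, within a range over settings of 0.0391 to 0.895). Between the mutants, Mcm4 was higher in the double knockout by 0.38 (limma adjusted p = 0.0122), opposite in sign to the 5 genes that were lower there. With the scaling of the authors' value table this became 0.08 (adjusted p = 0.493, within a range over settings of 0.00588 to 0.805), and it was lost without the first (adjusted p = 0.0511) or the second (0.0773) double knockout array.

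Mcm6 measured 6.16 and 6.0 in wild type, 6.20 and 6.02 in the Cyp26b1 knockout and 6.42 and 6.25 in the double knockout. In wild type and the Cyp26b1 knockout the arrays overlapped, and both double knockout arrays were higher. Its change of 0.03 in the Cyp26b1 knockout had a 95% interval of -0.24 to 0.30 (limma adjusted p = 0.839), whose upper end lies below the changes of Mcm2 and Mcm3. The changes of 0.26 in the double knockout against wild type and 0.23 between the mutants were not called (limma adjusted p = 0.19 and 0.154). With array number as a block both were called (adjusted p = 0.0461 and 0.0278). These numbers come from file names and are not shown to pair arrays. With quantile normalization the change in the Cyp26b1 knockout was 0.21 and passed (adjusted p = 0.0251, within a range over settings of 0.0251 to 0.859).

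Mcm7 measured 4.87 and 4.86 in wild type, 5.08 and 4.82 in the Cyp26b1 knockout and 5.13 and 5.11 in the double knockout. The 2 arrays of the Cyp26b1 knockout lay on either side of wild type. None of its changes was called with all 6 arrays: 0.09 in the Cyp26b1 knockout (95% interval -0.16 to 0.33, limma adjusted p = 0.515), 0.26 in the double knockout (adjusted p = 0.15) and 0.17 between the mutants (adjusted p = 0.22). Without the first Cyp26b1 knockout array, the last was 0.30 and passed (adjusted p = 0.035, within a range over settings of 0.035 to 0.993). The ring subunits were thus measured with unequal changes in the Cyp26b1 knockout, from -0.12 for Mcm4 to 1.30 for Mcm3. Each was read by 1 probe. Wild type means were highest for Mcm6, Mcm4 and Mcm7 (6.08, 4.93 and 4.86), which were not called, and lower for Mcm5, Mcm2 and Mcm3 (4.02, 2.40 and 1.18). Whether the size of a change depends on the signal level of its probe was not tested. Of the 4 genes with the E2F motif in the printed windows, Mcm3 and Mcm5 rose there, while Mcm6 and Mcm7 were not called. Mcm2, Mcm10 and Ccne1 rose without that motif in their windows. The Mcm10 window ends in TTTGGCG, which is TTTGGCGC without its last base, so a match across that edge cannot be read.

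Mcm10, which joins the ring when origins fire, measured 2.71 and 2.89 in wild type, 3.23 and 3.0 in the Cyp26b1 knockout and 2.84 and 2.93 in the double knockout. The Cyp26b1 knockout was highest without overlap, and the other genotypes overlapped. The rise of 0.31 (SE 0.108, 95% interval 0.06 to 0.57, limma adjusted p = 0.0426) passed the threshold in 10 of the 18 other settings, whose adjusted p ran from 0.0097 to 0.23. It was lost when any array except the second of the Cyp26b1 knockout was left out (adjusted p from 0.0576 to 0.23). The double knockout differed from wild type by 0.08 (adjusted p = 0.652) and from the Cyp26b1 knockout by -0.23 (adjusted p = 0.12), neither of them called. The difference between the mutants passed with quantile normalization (-0.38, adjusted p = 0.0215) and with the scaling of the authors' value table (-0.54, adjusted p = 0.0065), within a range over settings of 0.0065 to 0.47.

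**Figure D2:**
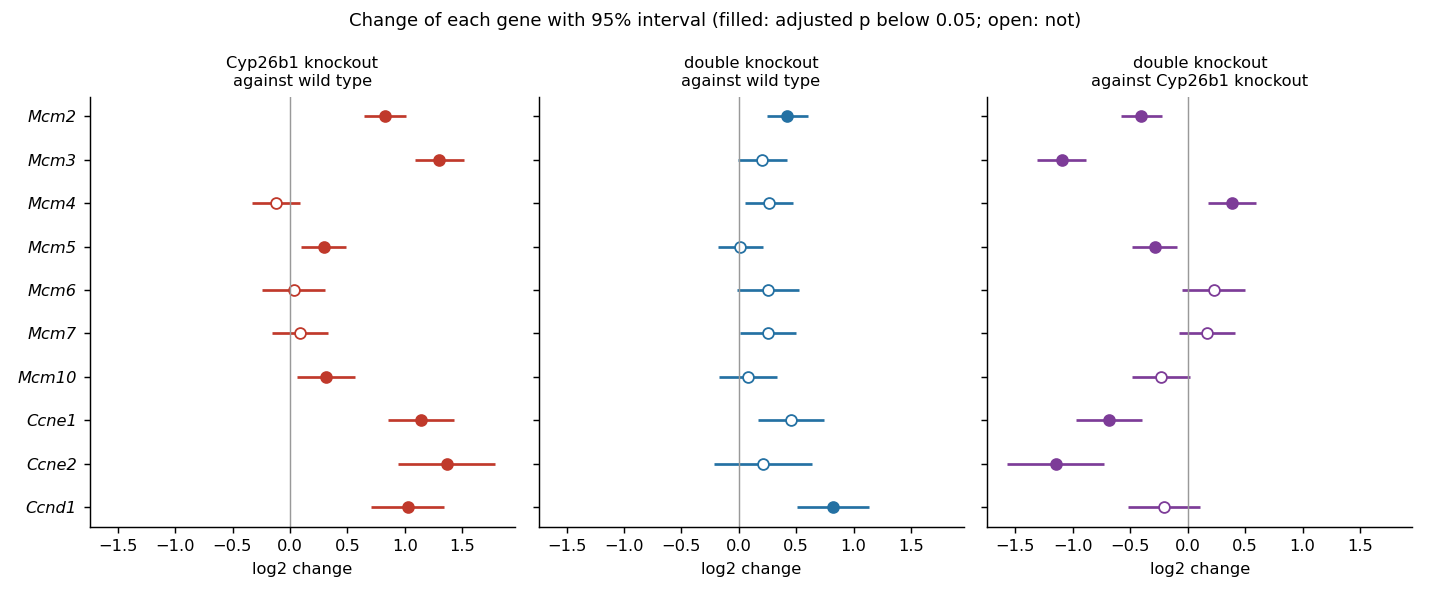
Log2 change of each gene in the 3 comparisons, with its 95% interval from the limma fit. Filled points passed an adjusted p of 0.05 and open points did not: 7 are filled in the Cyp26b1 knockout against wild type, 2 in the double knockout against wild type, and 6 between the mutants, where Mcm4 alone of these lies to the right of 0.

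Ccne1, encoding cyclin E1, was measured by a pair of probes. The brighter, which represents the gene, gave 1.65 and 1.38 in wild type, 2.77 and 2.55 in the Cyp26b1 knockout and 2.04 and 1.90 in the double knockout. All 3 genotypes were apart, with the double knockout between the others. Ccne1 rose by 1.14 in the Cyp26b1 knockout (SE 0.123, 95% interval 0.85 to 1.43, limma adjusted p = 0.000418), a 2.21-fold change, and differed by -0.69 from there to the double knockout (adjusted p = 0.00452). Both calls were kept in all 18 other settings. Against wild type the double knockout stood 0.46 higher, which missed the threshold (limma adjusted p = 0.0553), with adjusted p over the settings from 0.0191 to 0.287. It passed in 3 of the 18 other settings. These were normexp with marked spots left out (adjusted p = 0.0328), median scaling (0.0274) and array number as a block (0.0191).

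The dimmer Ccne1 probe gave -3.26 and -3.48 in wild type, -1.86 and -2.06 in the Cyp26b1 knockout and -2.65 and -3.04 in the double knockout, in the same order as the brighter. Tested with every probe as its own feature, it changed by 1.41 in the Cyp26b1 knockout (limma adjusted p = 0.000655), by 0.53 in the double knockout against wild type (adjusted p = 0.101, not called) and by -0.88 between the mutants (adjusted p = 0.00632). In that fit, 53.3%, 11.5% and 45.8% of all probes were called in either direction in these 3 comparisons.

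Ccne2, encoding cyclin E2, gave -1.97 and -2.14 in wild type, -0.42 and -0.95 in the Cyp26b1 knockout and -1.80 and -1.88 in the double knockout with its brighter probe. The Cyp26b1 knockout stood clear of both other genotypes, its 2 arrays being further apart than those of any other genotype. The rise of 1.36 (SE 0.182, 95% interval 0.94 to 1.79, limma adjusted p = 0.000917), 2.57-fold, had the widest interval of the 10 genes. From the Cyp26b1 knockout to the double knockout it changed by -1.15 (adjusted p = 0.00273), and against wild type the double knockout differed by 0.21 (adjusted p = 0.475). Normexp, here and below, is background correction on the median signals of all spots. With it, the rise was 0.70 and the difference between the mutants -0.82, and neither passed (adjusted p = 0.129 and 0.0729). The other settings kept both calls, among them a second normexp run that left marked spots out before the correction. Over all settings the adjusted p of the rise ran from 0.000385 to 0.129, and that of the difference from 0.000957 to 0.0729.

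The dimmer Ccne2 probe gave -2.72 and -3.05 in wild type, -1.34 and -1.93 in the Cyp26b1 knockout and -2.86 and -2.90 in the double knockout. On this probe the double knockout fell within the wild type values. It changed by 1.25 in the Cyp26b1 knockout (limma adjusted p = 0.00244) and by -1.25 between the mutants (adjusted p = 0.00328), and the double knockout did not pass against wild type (adjusted p = 0.998). Both E cyclins were therefore higher in the Cyp26b1 knockout on each of their probes, while their double knockout values were lower than those.

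Ccnd1, encoding cyclin D1, was, like Mcm2, higher than wild type in both mutants. Its probe is printed as 10 spots on each array, of which 0 were marked as faulty, and the spots of an array had an SD of 0.048 to 0.088. The array means were -0.67 and -0.86 in wild type, 0.42 and 0.10 in the Cyp26b1 knockout and -0.02 and 0.12 in the double knockout. All 4 mutant arrays lay above wild type, and the mutant genotypes overlapped. Ccnd1 rose by 1.03 in the Cyp26b1 knockout (SE 0.135, 95% interval 0.71 to 1.34, limma adjusted p = 0.000872), 2.04-fold, and by 0.82 in the double knockout (adjusted p = 0.0111). Between the mutants the difference of -0.21 was not called (95% interval -0.52 to 0.11, adjusted p = 0.25). With the scaling of the authors' value table it was -0.51 and passed (adjusted p = 0.0195, within a range over settings of 0.0195 to 0.804). The rise in the double knockout was lost without the second wild type array (adjusted p = 0.0894) or the second double knockout array (0.0514). With normexp the rise in the double knockout was 0.60 and did not pass (adjusted p = 0.101). No promoter window was listed for this gene.

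**Figure D3:**
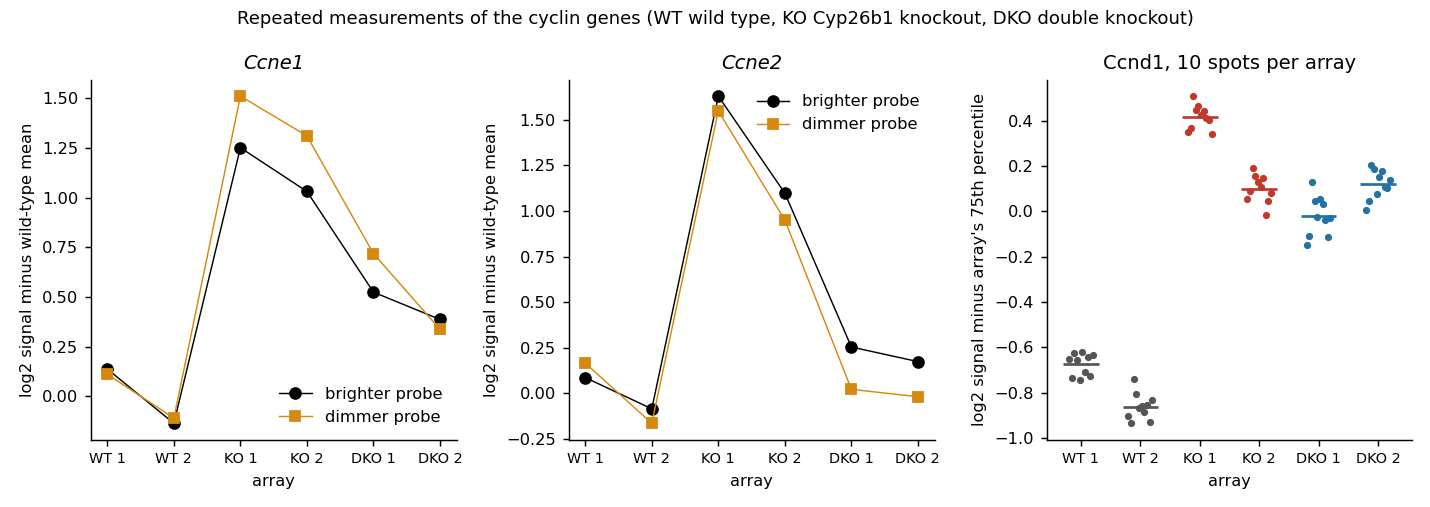
Repeated measurements of the 3 cyclin genes by array. The left and middle panels give both probes of Ccne1 and Ccne2 as log2 signal minus their wild-type mean, and the right panel gives the 10 spots of Ccnd1 with their mean line as log2 signal minus the 75th percentile of the array. Both probes of each E cyclin are highest on the Cyp26b1 knockout arrays, and all 4 mutant arrays of Ccnd1 lie above -0.67 and -0.86 of wild type.

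The mean of the 10 genes, each centred on its own 6-array mean, was -0.28 and -0.34 in wild type, 0.42 and 0.21 in the Cyp26b1 knockout and 0.00 and -0.02 in the double knockout. Across the 6 arrays, each gene was set against the mean of the other members, and the Pearson r ran from 0.98 for Ccne1 and 0.97 for Mcm2 down to 0.33 for Mcm7, 0.13 for Mcm6 and -0.31 for Mcm4. Arrays of a genotype share a slide, and no p is given. The 5 other genes most alike by r over the 6 arrays were Pctp (0.9992), Alox15 (0.9981), Gatad2a (0.9972), Hdac3 (0.9971) and Ltv1 (0.9961), of 13285 compared, of which 1142 had an r over 0.9. Alox15 was well above background on 2 of the 6 arrays.

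The remaining genes of the pathway were read from 7 lists. Among origin recognition and loading genes, 4 of 11 were higher in the Cyp26b1 knockout than in wild type and 3 lower. The geminin gene Gmnn, whose protein blocks relicensing, rose by 0.91 (limma adjusted p = 0.00107), and the loader gene Cdc6 by 0.69 (adjusted p = 0.00126), although a second Cdc6 probe gave 0.08. Orc6, of the origin recognition complex, changed by -0.37 (adjusted p = 0.00978), a call lost without the first wild type array (0.0799) and with normexp, where it was -0.08 (adjusted p = 0.813, within a range over settings of 0.00769 to 0.813). This list had 2 higher and 0 lower, with 0 lower also at an unadjusted p under 0.05, in the double knockout against wild type, and 4 higher and 2 lower between the mutants.

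Among genes of helicase activation and origin firing, 8 of 14 were higher in the Cyp26b1 knockout and 0 lower, also at an unadjusted p under 0.05, with a median of 0.34. Cdc45, which completes the active helicase with Mcm2-7, rose by 1.67 (limma adjusted p = 8.96e-05), and Wdhd1 by 1.07 (adjusted p = 0.000167). Cdc7, the kinase that activates the ring, rose by 0.57 (adjusted p = 0.0026), and its other probes gave 1.93 and 1.0. In the double knockout 4 were higher than in wild type and 0 lower. Between the mutants 6 were lower and 0 higher, with 2 higher at an unadjusted p under 0.05. There Cdc45 changed by -1.13 and Wdhd1, on its brighter probe, by -0.66 (limma adjusted p = 0.000521 and 0.00135). The other Wdhd1 probe, tested as its own feature, gave 0.67 in the Cyp26b1 knockout against wild type (limma adjusted p = 0.00588). Between the mutants that probe gave -0.36 and was not called (adjusted p = 0.0708).

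DNA polymerases, the clamp and its loader gave 7 of 19 higher and 1 lower in the Cyp26b1 knockout. Fen1, a flap nuclease of lagging strand synthesis, rose by 1.42 (limma adjusted p = 8.96e-05) and Pola2, of the polymerase alpha primase, by 1.34 (adjusted p = 0.000249), while Pole2, of polymerase epsilon, was lower by 0.76 (log2 change -0.76, adjusted p = 0.000447). In the double knockout 2 were higher than in wild type and 0 lower. Between the mutants 5 were higher and 5 lower.

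Nucleotide supply gave 1 of 7 higher and 1 lower in the Cyp26b1 knockout. Rrm1, the large subunit of ribonucleotide reductase, rose by 0.22 (limma adjusted p = 0.0453), a call kept in 7 of 18 other settings. This list had 0 called in either direction in the double knockout against wild type, with 2 higher and 0 lower at an unadjusted p under 0.05.

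Other cyclins and kinases of G1/S gave 4 of 9 higher in the Cyp26b1 knockout and 1 lower, which was Fbxw7 on its brighter probe. Cdk4, the partner of cyclin D, rose by 0.55 (limma adjusted p = 0.00277). Cdk2, the partner of cyclin E, gave 1.99 (limma adjusted p = 0.000265) on its brighter probe and -0.29 on the other, which was not called. The signal of the brighter was itself low, though well above background on all 6 arrays. It measured -4.09 and -3.94 in wild type, -2.03 and -2.02 in the Cyp26b1 knockout and -3.91 and -4.31 in the double knockout. With normexp the brighter gave 0.40 and lost its call (adjusted p = 0.71, within a range over settings of 0.000183 to 0.71). For Fbxw7, of the ligase that marks cyclin E for destruction, the brighter probe gave -0.58 and the other 0.81, so that the lower call of this list rests on the choice of probe and no direction is stated for the gene.

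E2F and Rb family genes gave 3 of 13 higher and 5 lower in the Cyp26b1 knockout. E2f1 rose by 1.06 (limma adjusted p = 0.000336), with 1.66 on its other probe, E2f5 rose by 0.84 (adjusted p = 0.000855), and E2f6, a repressor, fell (log2 change -1.09, adjusted p = 0.000122). Between the mutants 4 were higher and 3 lower, E2f1 changing by -0.65 (adjusted p = 0.00313) and E2f6 by 0.83 (adjusted p = 0.00054).

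Of the Cip/Kip and Ink4 inhibitors of cyclin-dependent kinases, 1 of 7 was higher and 4 lower in the Cyp26b1 knockout, with a median of -0.71. Cdkn2b changed by -1.93 (limma adjusted p = 0.000125), Cdkn1a by -0.93 (adjusted p = 0.000779) and Cdkn1c by -0.71 (adjusted p = 8e-04), the last of which became -0.44 with normexp and lost its call (adjusted p = 0.264, within a range over settings of 0.000411 to 0.264). In the double knockout 1 was higher and 2 lower than in wild type, Cdkn2b by -1.33 (adjusted p = 0.00236) and Cdkn1a by -0.66 (adjusted p = 0.0157). The Cdkn1a call was lost without any 1 of these 4 arrays (adjusted p from 0.0518 to 0.125). Between the mutants 2 were higher and 0 lower, with 3 higher and 0 lower at an unadjusted p under 0.05. The counts of calls in these lists are read against the shares of all features given above for each comparison. Those shares do not apply to the unadjusted counts.

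**Figure D4:**
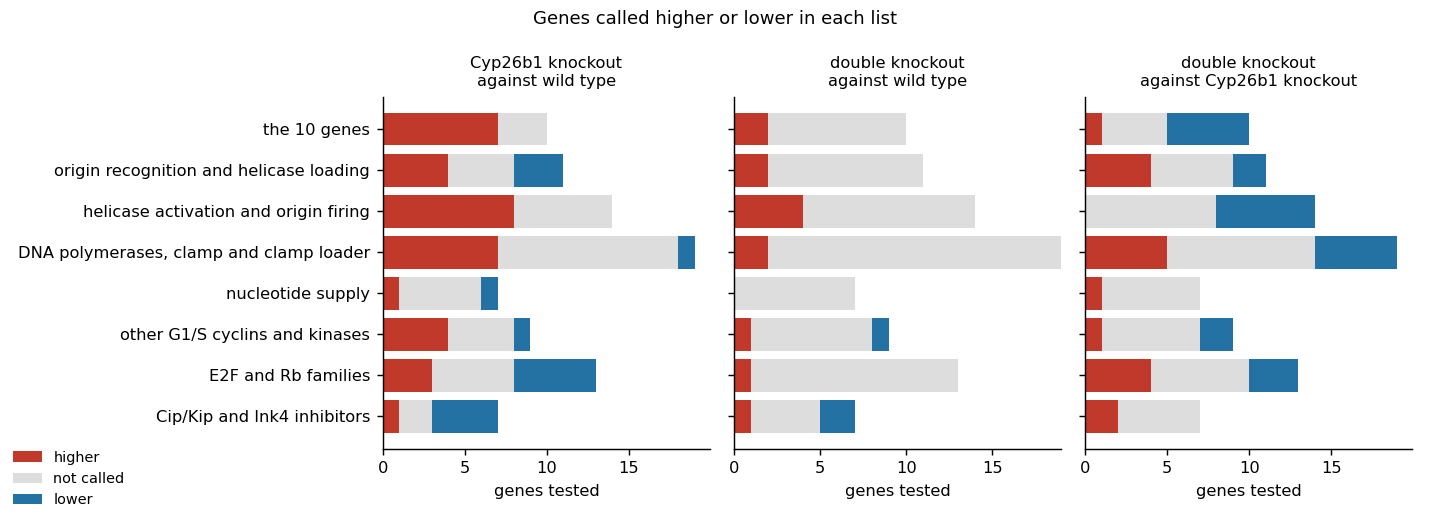
Number of genes called higher, called lower or not called in each list, in the 3 comparisons. Bar lengths are genes tested. The bars for the 10 genes and for helicase activation hold no lower call in the Cyp26b1 knockout, with 7 of 10 and 8 of 14 higher, while 4 of 7 kinase inhibitors are lower.

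The gonad holds several cell types, and markers of the main ones were present on all arrays. The summed linear signal of 8 germ cell markers, relative to the 75th percentile, was 97.0 and 97.7 in wild type, 76.3 and 61.6 in the Cyp26b1 knockout and 77.6 and 89.4 in the double knockout, with 2 called higher in the Cyp26b1 knockout against wild type and 4 called lower. The sum of 7 Sertoli markers ran from 54.8 to 60.4 in wild type, 56.8 to 62.4 in the Cyp26b1 knockout and 67.4 to 70.8 in the double knockout. For 5 fetal Leydig markers it was 110.0 and 94.8 in wild type, 58.5 and 77.9 in the Cyp26b1 knockout and 96.7 and 81.3 in the double knockout. The sum of 8 endothelial markers was 14.9 and 14.1 in wild type, 13.7 and 13.2 in the Cyp26b1 knockout and 16.8 and 16.4 in the double knockout, with no overlap. That of 7 macrophage and blood markers was 8.81 and 7.84 in wild type, above 5.73 and 6.71 in the Cyp26b1 knockout and 6.24 and 5.73 in the double knockout. The sum of 6 mesonephros markers was 1.06 and 1.47 in wild type, 1.2 and 0.76 in the Cyp26b1 knockout and 0.892 and 0.935 in the double knockout. For the ovarian somatic markers it was 11.8 and 11.5 in wild type, 13.2 and 9.47 in the Cyp26b1 knockout and 12.9 and 13.8 in the double knockout. Foxl2 and Irx3, of the ovarian somatic list, were not well above background in both arrays of any genotype. In the Cyp26b1 knockout against wild type, 3 Sertoli markers were called higher and 2 lower, and 4 endothelial markers higher and 3 lower. For fetal Leydig markers these counts were 0 and 3, and for macrophage and blood markers 2 and 1. Mesonephros markers gave 1 and 2, and ovarian somatic markers 2 and 1. Of all features, 21.5% were called higher and 29.7% lower. A steady sum can thus hold changes in both directions. The part of cell composition in the changes of the 10 genes was not tested.

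**Figure D5:**
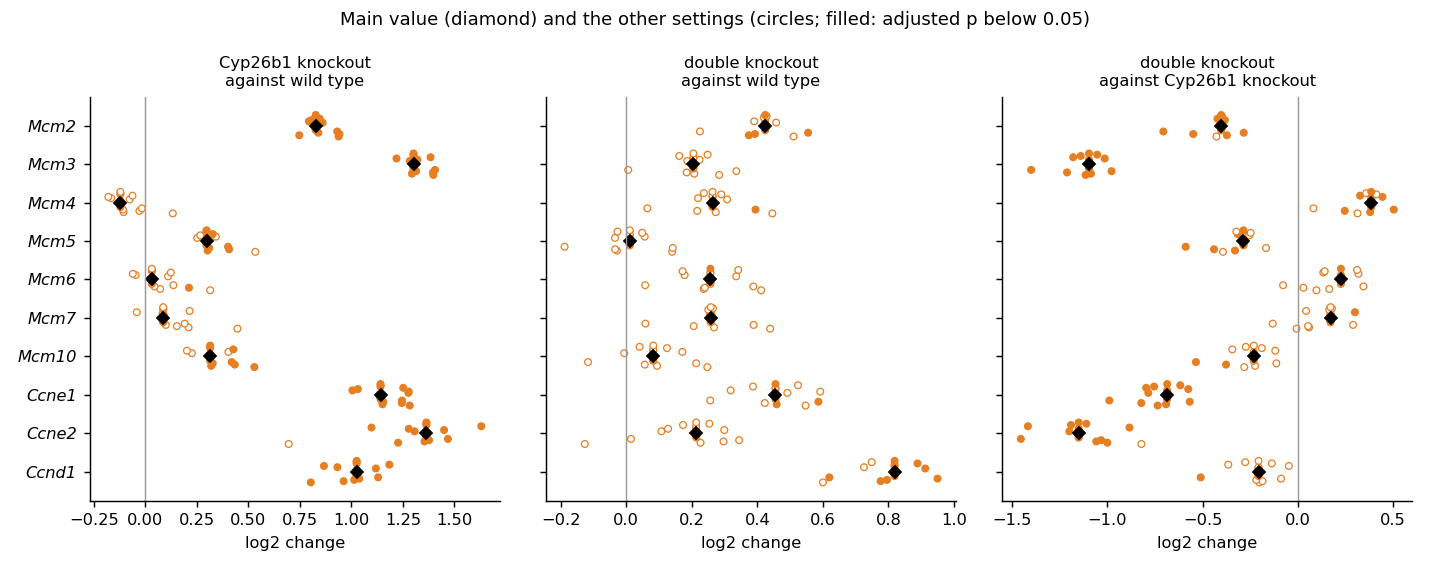
Log2 change of each gene under the 18 other settings (circles, filled where the adjusted p was below 0.05), with the reported value as a diamond. In the Cyp26b1 knockout against wild type all circles of Mcm2, Mcm3, Ccne1 and Ccnd1 are filled, while those of Mcm5 and Mcm10 are filled in 13 and 10 of the 18.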

How the data were processed

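Total RNA of mouse E14.5 male gonads was labelled with Cy3, per the labels' protocols, and the deposited scanner output, 1 file for each array, holds intensities of spots. The reader was Agilent Feature Extraction, version 9.5 in the submitters' processing notes and 9.5.3.1 in the headers. Its processed signal is already background-subtracted, per the file headers. The authors also deposited a table with 1 column per genotype that behaves as a linear ratio. Its log2 differences between genotypes matched those of the arrays with a slope of 1.000 and shifts of 0.10 (Cyp26b1 knockout against wild type), -0.20 (double knockout against wild type) and -0.30 (double knockout against Cyp26b1 knockout); its column medians were 1, 1.12 and 0.959 for wild type, Cyp26b1 knockout and double knockout. Its centring and scaling are unknown and its direction is settled. The arrays' number limits the precision.

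Log2 processed signals minus each array's 75th percentile were used. Marked spots and controls were left out, spots of a probe were averaged, and 25 probes were dropped. Accessions were matched to a RefSeq table of GRCm38.p6: 23374 of 41174 probes matched 1 gene symbol, 0 several and 17800 none. A gene is represented by its brightest probe. Tested were the 22267 features that in 1 or more genotypes were well above background on both arrays. limma 3.58.1 in R 4.3.3 (lmFit, eBayes with an intensity trend, 3 residual and 4.37 prior degrees of freedom) was fitted over all 6 arrays, two-sided. The code was also run on simulated data with independent noise, which copy neither the slides nor the share of features changed here. The 10 genes, the gene lists and the tests were chosen with earlier results of these data known. Named are all 10 genes, up to 3 genes per list with the smallest adjusted p in the Cyp26b1 knockout against wild type, and the 5 genes most alike; 1 gene that this rule takes is not reported here. No probe was matched for Orc1, Gins1, Gins2, Rfc3, Skp2, Sox10, Insl3 and Cd68. Array coordinates, on an older build, were not used. The planned background correction on mean signals was run on median signals, since the files used here hold no mean signal column.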

Additional observations from a re-analysis of the deposited data

How the results depend on the processing

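Over the 18 other settings, 1580 of 1722 changes of single genes kept direction and side of the threshold, 113 lost their call, 26 gained one and 3 reversed. For the 10 genes these counts were 490, 39, 11 and 0, and a change of sign with no call on either side, which occurred 15 times for them and 27 times for other genes, is counted as kept. The number higher in the Cyp26b1 knockout against wild type (7) ran from 5 to 8. In the double knockout against wild type it was 2, and became 0 with normexp on median signals, 4 with median scaling, 1 with the scaling of the authors' value table, 1 without the intensity trend, 4 with the replicate block, which added Mcm6 (adjusted p = 0.0461) and Ccne1 (0.0191), and 0 to 2 with 1 array left out. Against the Cyp26b1 knockout, the number higher (1) became 0 with normexp, 0 with the authors' scaling, 2 with the replicate block, which added Mcm6 (adjusted p = 0.0278), and 0 to 2 with 1 array left out, and the number lower (5) became 2 with normexp. The authors' scaling also added Mcm10 and Ccnd1 to the genes lower between the mutants (adjusted p = 0.0065 and 0.0195), and quantile normalization added Mcm10 (0.0215). Of all features, the 4797 called higher against wild type in the Cyp26b1 knockout became 1696 with normexp on all spots, and the 6605 called lower became 2032. A second normexp run, which left marked spots out before the correction, gave 5051 higher and 5330 lower. It gave 1002 and 1380 in the double knockout against wild type, and 4230 and 4007 between the mutants. Among the 10 genes, this second run added Ccne1 to those higher in the double knockout against wild type (limma adjusted p = 0.0328). For the double knockout against wild type the 1167 higher became 320 with normexp, 2564 with median scaling, 686 with the authors' scaling, 728 with no filter and 285 to 1299 with 1 array left out, and the 1460 lower became 222 with normexp, 4446 with the authors' scaling, 814 with no filter and 275 to 1592 with 1 array left out. Between the mutants the 5576 higher became 1630 with normexp, 2145 with the authors' scaling and 10594 with no filter, and the 3999 lower became 1143 with normexp, 7413 with the authors' scaling and 6201 with every probe separate. Called features that were higher made up 42.1% (Cyp26b1 knockout against wild type), 44.4% (double knockout against wild type) and 58.2% (between the mutants), and 52.1%, 13.4% and 22.4% with the authors' scaling. That scaling shifted the median of all features by 0.104, -0.199 and -0.303. Median scaling gave 71.1% in the double knockout against wild type and 70.2% between the mutants, normexp gave 59.0% in the former, and no filter 72.1% in the latter. Fbxw7 reversed to 0.11 in the Cyp26b1 knockout and to -0.67 between the mutants with the mean over probes, whose probes disagree, and Rrm1 to -0.30 between the mutants with the authors' scaling. Causes of the other changes were not tested. Normexp on all spots shifted the median of all features by -0.279, -0.161 and 0.15 in the 3 comparisons. The second run, without marked spots, shifted it by 0.0808, 0.00841 and -0.0849. Array numbers come from file names and, as same-numbered arrays deviated together with r of 0.105 to 0.196 over only 2 numbers, are not taken as pairs. The slide as a block was not run because each slide holds 1 genotype.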
